A study of Mus musculus with 15 samples.

Results

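The 10 genes described here are the feedback inhibitors and transcriptional targets of the kinase ERK: the phosphatases Dusp4, Dusp5 and Dusp6, the inhibitors Spry1, Spry2, Spry4 and Spred1, the transcription factors Etv4 and Etv5, and Phlda1. They were chosen by name for their known place downstream of ERK, though with earlier results of these data known. All 10 were listed among the 15175 genes of the MC count table and the 49585 genes of the HC and the KMC count tables. RNA-Seq was performed on pancreata of C57BL/6 mice, in 15 libraries with the RNA of 3 mice pooled in each. The study asked how hematopoietic progenitor kinase 1 (HPK1, encoded by Map4k1), a kinase that acts on the GTPase-activating protein of Ras, affects Ras signaling in acinar cells.

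The first experiment held 3 MC libraries, from mice with the kinase-dead HPK1 mutant M46 and Bac-cre, and 3 libraries of its controls, which the labels call B control, all aged 2 months. The second held 3 libraries labelled HC, from HPK1/B mice, and 2 libraries of wild-type controls, all aged 4 months. All of these mice had been given cerulein, a peptide that overstimulates acinar cells and injures the pancreas. The third held 2 KMC libraries, from M46/Ras/B mice aged 9 months, and 2 KC libraries, from Ras/B mice aged 15 months, so that in KMC against KC the genotype and the age cannot be told apart. Both KC and KMC carried the allele that the labels call Ras, which is not described further here. The labels call the tissue of the third experiment pancreas, and the study describes it as pancreatic ductal adenocarcinoma (PDAC). Bac-cre is a tamoxifen-inducible Cre recombinase under the elastase I promoter, so each transgene was switched on in acinar cells only, the mice kept their own HPK1, and the RNA came from whole tissue.

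ERK is the last kinase of the Ras, Raf and MEK cascade, which carries growth factor signals to the nucleus and is switched on in acinar cells that turn duct-like after injury. Active ERK induces genes whose products damp the same cascade: dual-specificity phosphatases that dephosphorylate ERK, and Sprouty and Spred proteins that act upstream near receptors, Ras and Raf. It also induces the ETS factors Etv4 and Etv5, which carry the transcriptional response onward. The RNA of these genes is therefore widely used as a readout of ERK output, although other pathways act on each of them too.

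Where the genes lie was taken from GENCODE on GRCm38. Dusp4 spans chr8:34807297-34819894, Dusp5 chr19:53529109-53542431, Dusp6 chr10:99263231-99267489, Spry1 chr3:37639947-37644598, Spred1 chr2:117121374-117182279 and Phlda1 chr10:111506286-111508645, all on the forward strand. Spry2 at chr14:105891947-105896819, Etv4 at chr11:101769742-101785371 and Etv5 at chr16:22381309-22439719 lie on the reverse strand, as does Spry4. Exons of a gene on the opposite strand cover 547 bases (22.1%) of the exons of Dusp5, 710 bases (24.4%) of those of Spry1 and 727 bases (33.0%) of those of Phlda1. Whether the counting used the strand was not stated, so reads of those partners could not be told apart from reads of these 3 genes.

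Promoter sequence was available from RefSeq (GRCm38.p6) for 6 of the 10 genes, Dusp5, Dusp6, Spry1, Spry2, Spred1 and Etv5, and those of Dusp5 and Dusp6 are shown, Dusp5 because it alone held motif matches and Dusp6 because it is a phosphatase of the same family with none. The 250 bases before each start were searched on both strands for the ETS motif CCGGAA, the AP-1 motif TGANTCA, the CRE motif TGACGTCA and the CArG box, which binds serum response factor. The CArG box was added to the search after the sequence of Dusp5 had been read. The capitals mark the CArG boxes.
Dusp5, chr19:53528895-53529108, forward strand: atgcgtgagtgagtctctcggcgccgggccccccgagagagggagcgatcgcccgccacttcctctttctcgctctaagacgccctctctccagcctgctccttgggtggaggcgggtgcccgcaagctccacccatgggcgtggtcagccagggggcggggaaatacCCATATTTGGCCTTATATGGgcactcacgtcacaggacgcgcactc
Dusp6, chr10:99262981-99263230, forward strand: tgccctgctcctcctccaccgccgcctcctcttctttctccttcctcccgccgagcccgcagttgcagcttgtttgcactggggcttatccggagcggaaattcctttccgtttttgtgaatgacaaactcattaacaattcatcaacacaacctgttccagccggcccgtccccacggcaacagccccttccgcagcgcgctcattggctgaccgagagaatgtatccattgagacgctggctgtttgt

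Dusp5 held a pair of adjoining CArG boxes, CCATATTTGG from base -82 to -73 and CCTTATATGG from base -72 to -63, counted from the RefSeq start. The stretch of Dusp5 is shown up to the GENCODE start, which lies before the RefSeq start. Of 32851 mouse promoters of this length, 1.47% held at least 1 CArG box, and 6 (0.0183%) held 2 or more. Because the CArG box was added after the sequence had been read, these shares do not measure how unexpected the pair in Dusp5 is. Dusp5 held no match to the ETS, AP-1 or CRE motif. No match to any of the 4 motifs was found in the windows of the other 5 genes with an entry. The share of all promoters with a match was 12% for the ETS motif, 6.75% for AP-1 and 1.55% for CRE. A match is a stretch of letters and was not tested for binding.

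The libraries held 29766575 to 38745907 counts (median 33658995), so 3 counts, the most that a count of 0 allows, stood for 0.0774 to 0.101 CPM (CPM gives a gene's counts relative to its library), a limit that covers counting error only. The 10 genes had 4 to 3929 counts per library, with the lowest, 4 counts of Etv4, in KC 1. Map4k1, the gene of both transgenes, stood by total counts at 7.85 to 9.03 CPM in MC against 1.65 to 4.67 CPM in controls, at 7.35 and 24.6 CPM in KMC against 0.265 and 1.18 CPM in KC, and at 5.0 to 7.85 CPM in the libraries labelled HC against 11.9 and 15.3 CPM in controls. The last goes against the label if transgene reads were counted in Map4k1, which is not stated. These libraries are therefore called the libraries labelled HC throughout. No Map4k1 value shows by itself whether a transgene was expressed. The summed T cell markers were also higher in MC (9.64 to 12 against 1.39 to 3.59 CPM) and in KMC (14.6 and 28.3 against 1.13 and 2.42 CPM). In the libraries labelled HC they overlapped the controls (18.7 to 51.1 against 36.7 and 66.4 CPM). The part of T cells in the Map4k1 values was not tested. One of them, HC 3, also stood apart in Xist (0.753 CPM) and the Y-linked Ddx3y (47.9 CPM), as in male tissue, while the other 4 libraries of that experiment had 573 CPM of Xist or more and 0 counts of Ddx3y. Both KC libraries had Ddx3y (5.2 and 13.2 CPM) and both KMC libraries had none of it but 504 and 663 CPM of Xist, so sex too was joined to genotype there. The MC count table lists neither Xist nor Ddx3y, so sex could not be read in this way for MC and its controls.

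Acinar markers, the defining genes of the labelled tissue, took 29.2 to 36.6% of MC libraries and 34.1 to 45.4% of their controls, 4.32 to 6.73% in the libraries labelled HC and 5.05 to 6.48% in controls, and 18.9 to 36.5% in KMC against 46.3 to 51.9% in KC. All 16 were found in every library. The marker lists of other cells are given beside the results that they move with. In whole tissue, fewer cells of a type and less RNA per cell cannot be told apart, which holds for every value below.

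Levels of the 10 genes are given below as CPM scaled by the trimmed mean of M-values (TMM), which sets libraries of a table against each other. The plot of levels by library shows the 15 libraries side by side. The tables were scaled separately, so levels were compared between groups only within a table.

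**Figure D1:**
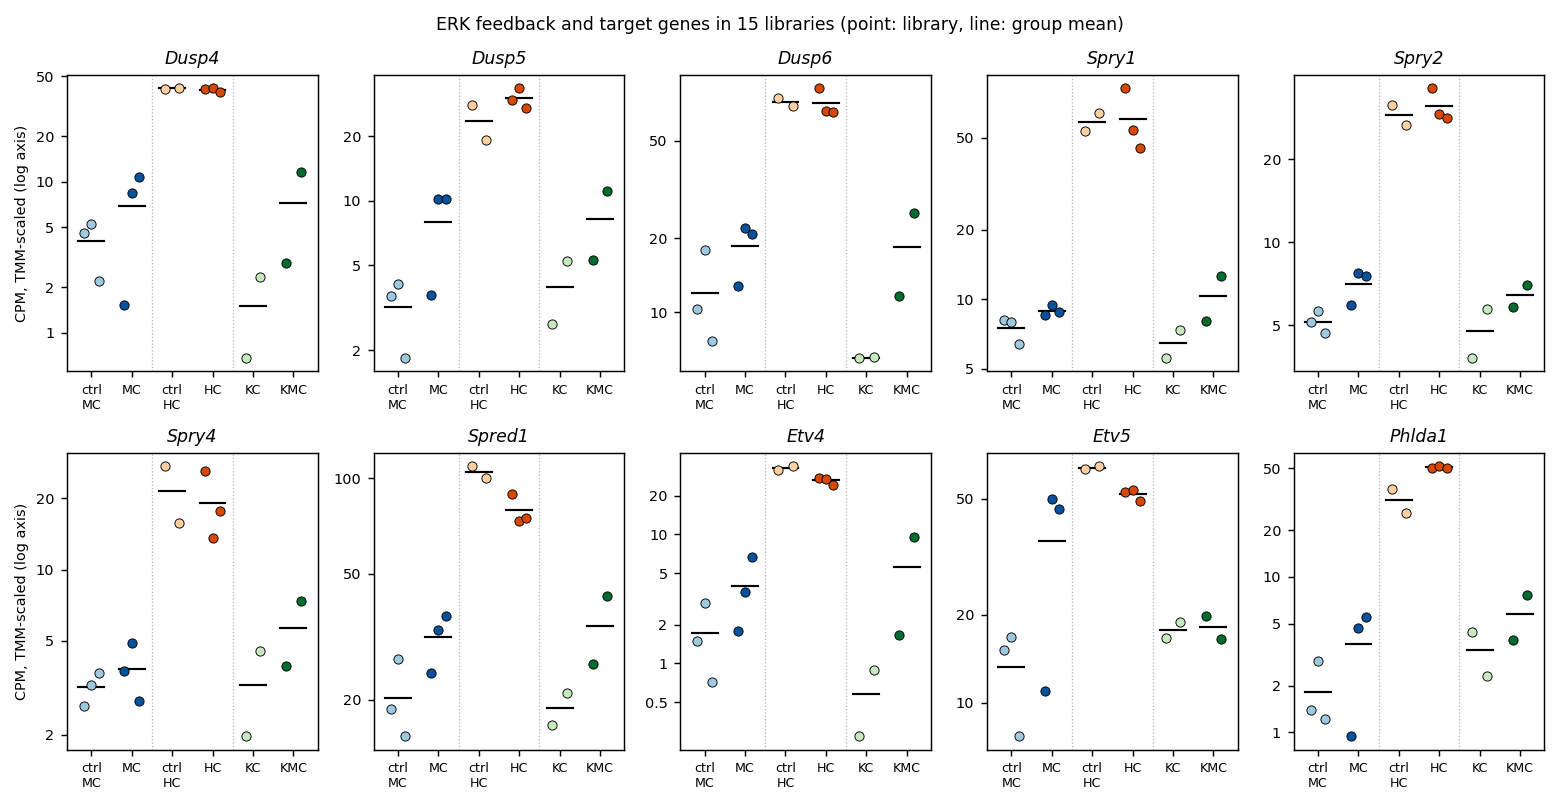
Level of each of the 10 genes in each library, in TMM-scaled CPM on a log axis, for the 6 groups (ctrl stands for control); each point is a library and each line a group mean, and dotted lines separate the tables. MC 2 and MC 3 sit above the controls of MC in most panels while MC 1 sits among them, the groups of the HC table lie close together, and KMC 2 is the highest point of the KMC table in 9 of 10 panels.

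Per kilobase of exon, which allows genes to be compared with each other, Etv5 had the highest mean level in MC at 8.70 ± 5.24 CPM per kb (SD, n = 3), followed by Dusp6 at 5.94 ± 1.60 and Spred1 at 4.64 ± 0.950. In the controls of MC the order of the first 2 was the other way, with Dusp6 at 3.83 ± 1.71 and Etv5 at 3.22 ± 1.18 CPM per kb (SD, n = 3), a gap within their spread. Etv4 was the lowest of the 10 in those controls at 0.550 ± 0.359 CPM per kb and in KC at 0.187 ± 0.141 CPM per kb (SD, n = 2). KC had its highest levels in Etv5, at 4.34 ± 0.394, and Spred1, at 2.78 ± 0.460 CPM per kb. In KMC, Dusp6 came first at 5.90 ± 3.08 CPM per kb (SD, n = 2), though Spred1 at 5.03 ± 1.72 and Etv5 at 4.42 ± 0.559 lay within its spread. Phlda1, Dusp6 and Spry1 led in the libraries labelled HC, with 23.0 ± 0.321, 22.7 ± 2.97 and 20.8 ± 6.62 CPM per kb (SD, n = 3), which do not differ beyond their spread. Spry4 was lowest there, at 4.03 ± 1.35 CPM per kb, and in MC, at 0.799 ± 0.221 CPM per kb.

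The comparison of MC with its controls asks whether the kinase-dead HPK1 goes with a different output of the cascade in injured pancreas. All 10 genes had a higher mean in MC, by 1.19-fold (Spry1) to 2.70-fold (Etv5), and none passed the test. Each table was tested as a whole with edgeR's quasi-likelihood method, and a gene was called where its adjusted p did not exceed 0.05 and its level differed by 1 or more on the log2 scale. It called 0 of the 10 genes and 0% of the 13902 genes tested. At an unadjusted p under 0.05, 4 of the 10 were higher (Dusp5, Spry2, Spred1 and Etv5), where 9.2% of all genes tested were. This count was 8 without MC 1, 6 without control 2, 1 without control 1 or control 3, and 0 without MC 2 or MC 3. Over all genes tested, in either direction, the count moved too, from 2038 of 13902 with all libraries. It was 2383 of 14132 without MC 1 and 4166 of 14129 without control 2. Without control 1 it was 1026 of 14157, and without control 3 it was 1536 of 14221. Without MC 2 it was 1058 of 13981, and without MC 3 it was 1363 of 14062. The median log2 fold change of the 10 was 0.70, against -0.02 over all genes tested. DESeq2 called 0 of the 10, and 3.11% of all genes as higher.

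Among the phosphatases, Dusp5, which dephosphorylates ERK in the nucleus, had the smallest p of the 10 genes. It stood at 3.62, 10.2 and 10.1 CPM in MC 1, 2 and 3 and at 3.60, 4.08 and 1.84 CPM in controls 1, 2 and 3. MC 2 and MC 3 were above every control, and MC 1 was level with control 1 and below control 2. The log2 fold change was 1.32 (SE 0.45, SE being the standard error, 95% interval 0.28 to 2.36, adjusted p = 0.261 with edgeR), and DESeq2 gave an adjusted p of 0.066.

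Dusp6, the cytoplasmic ERK phosphatase, stood at 12.8, 22.1 and 20.9 CPM in MC and at 10.3, 18 and 7.68 CPM in controls. The groups overlapped through MC 1 alone, which lay below control 2, and the log2 fold change was 0.63 (SE 0.33, adjusted p = 0.403, edgeR). Dusp4, a nuclear phosphatase of ERK and related kinases, stood at 1.52, 8.37 and 10.8 CPM in MC and at 4.59, 5.27 and 2.20 CPM in controls. Here MC 1 was the lowest and MC 3 the highest of the 6 libraries, and the log2 fold change of 0.78 had an interval from -0.71 to 2.26.

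Of the Sprouty and Spred genes, Spry1 and Spry2 were those whose groups did not overlap. Their products hold back signaling between receptors and Ras or Raf. Spry2 stood at 5.92, 7.73 and 7.53 CPM in MC and at 5.16, 5.63 and 4.67 CPM in controls (log2 fold change 0.45, SE 0.18, adjusted p = 0.303, edgeR). Spry1 stood at 8.52, 9.42 and 8.81 CPM in MC and at 8.13, 7.98 and 6.38 CPM in controls (log2 fold change 0.25, SE 0.15, adjusted p = 0.443, edgeR). Every MC library was thus above every control in 2 of the 10 genes, where the same was found for 10.9% of all genes tested. Both differences are small, at 1.37-fold and 1.19-fold.

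Spred1, which recruits the RasGAP neurofibromin to the membrane, stood at 24.4, 33.2 and 36.9 CPM in MC and at 18.7, 26.9 and 15.4 CPM in controls. Only MC 1 and control 2 broke the separation, and the log2 fold change was 0.63 (SE 0.24, 95% interval 0.08 to 1.19, adjusted p = 0.295, edgeR). Spry4, another Sprouty, stood at 3.72, 4.89 and 2.79 CPM in MC and at 2.64, 3.25 and 3.64 CPM in controls. It was the gene in which MC 3 did not stand above the controls, and its log2 fold change of 0.26 had an interval from -0.35 to 0.87.

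By role, the ETS factors had the highest median log2 fold change, 1.32, against 0.78 for the phosphatases and 0.36 for the Sprouty and Spred genes. Etv5 stood at 11, 49.8 and 46.3 CPM in MC and at 15.2, 16.8 and 7.68 CPM in controls. MC 2 and MC 3 lay far above all controls, but MC 1 lay below 2 of the 3 controls, and the log2 fold change was 1.43 (SE 0.54, 95% interval 0.16 to 2.70, adjusted p = 0.300, edgeR). Etv4, the less abundant of the pair, stood at 1.79, 3.55 and 6.67 CPM in MC and at 1.49, 2.92 and 0.719 CPM in controls, a log2 fold change of 1.21 (SE 0.59, adjusted p = 0.377, edgeR). Etv5 exceeded Etv4 by 6.13, 14.0 and 6.94 times in MC and by 10.2, 5.76 and 10.7 times in controls, so the ratio of both levels did not separate the groups.

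Phlda1, a pleckstrin homology-like protein induced by growth factors, stood at 0.947, 4.68 and 5.51 CPM in MC and at 1.39, 2.89 and 1.21 CPM in controls. MC 1 was again below all controls and the other MC libraries above them, and the log2 fold change of 1.01 had an interval from -0.44 to 2.47.

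MC 1 therefore stood apart from MC 2 and MC 3 in these genes. It was above all 3 controls in 3 of the 10 genes and below all of them in 2, whereas MC 2 was above all controls in 10 and MC 3 in 9. Control 3 was the lowest of the 6 libraries in 7 of the 10 genes. The same counts over all genes tested were not made for single libraries, so no pattern particular to these 10 genes is shown. Without MC 1, edgeR called 1 of the 10 genes, Etv5 (log2 fold change 1.87, adjusted p = 0.0435), where 1.17% of the genes then tested were called higher. Over the other alternatives the adjusted p of Etv5 reached 0.720. Without control 2, Spred1 had an adjusted p of 0.0493 with a log2 fold change of 0.88, which was no call, and 0 of the 10 were called.

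The cell type markers also differed between these libraries. The summed level of the 5 B cell markers, by total counts, was 59.4, 17.3 and 3.21 CPM in MC 1, 2 and 3 and 0.793 to 1.85 CPM in controls. The 7 T cell markers summed to 9.64 to 12 CPM in MC and 1.39 to 3.59 CPM in controls, and all 7 had an unadjusted p under 0.05. Of the 9 ductal markers, 6 were higher and 3 lower, with sums of 1324, 2470 and 2363 CPM in MC 1, 2 and 3 and 1388, 2161 and 814 CPM in controls 1, 2 and 3. The low ductal sums were thus in MC 1 among the MC libraries and in control 3 among the controls, libraries also low in most of the 10 genes. This was not particular to the ductal markers. The same libraries had the lowest sums of their groups for fibroblast, macrophage, endothelial (139 and 77.2 CPM), neutrophil (23.5 and 5.04 CPM) and islet markers (951 and 733 CPM). They also had the highest acinar shares, 36.6% and 45.4%. Among the MC libraries, the T cell sum was lowest in MC 2 and the B cell sum in MC 3. These sums are by total counts and the 10 genes are scaled by TMM, so the orders are not on the same scale. Of the 8 fibroblast markers all were higher, with sums of 1828 to 3431 CPM against 692 to 2706 CPM, and of 7 macrophage markers all were higher, at 945 to 1682 CPM against 349 to 1425 CPM. The part of these cells in the result was not tested.

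**Figure D2:**
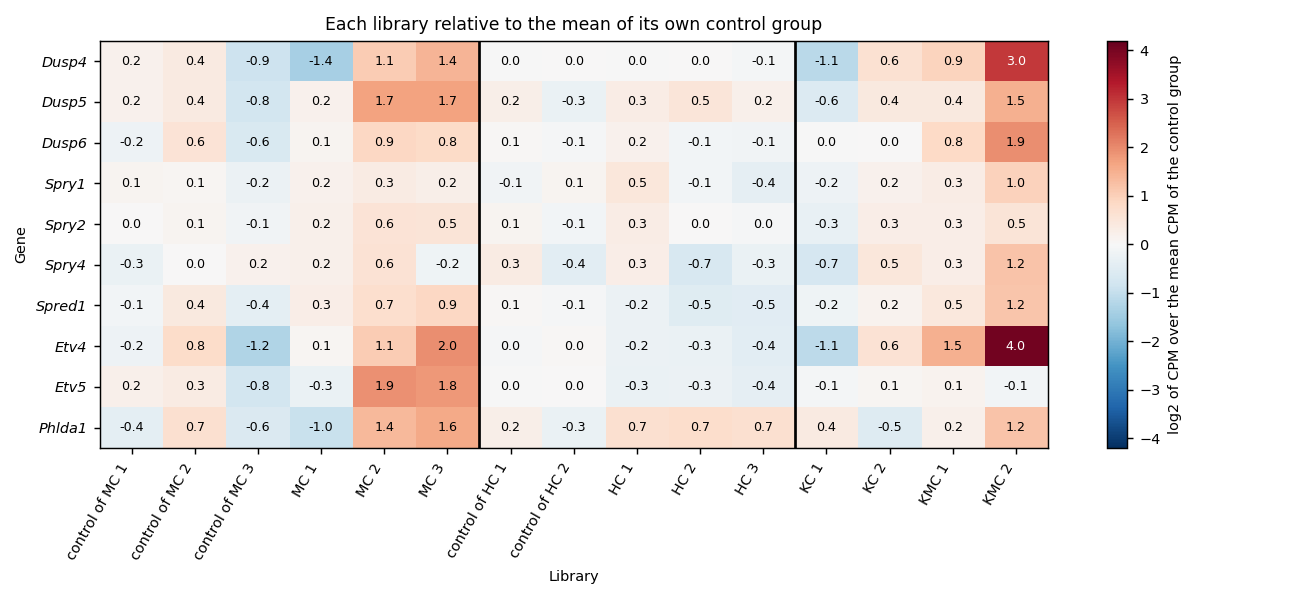
Log2 of the level of each gene in each library over the mean level of its own control group (rows are genes, columns libraries, and black lines separate the tables); red is above and blue below that mean, and 0 is the control mean. MC 2 and MC 3 are red for all genes but Spry4 in MC 3, MC 1 is not, and in the KMC table the row of Etv5 stays near 0 while that of Etv4 reaches 4.0 in KMC 2.

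Across the library pattern, the median log2 level relative to the control mean over the 10 genes was 0.14 in MC 1, 0.97 in MC 2 and 1.14 in MC 3. In the KMC table it was 0.36 in KMC 1 and 1.19 in KMC 2, and among the libraries labelled HC it was 0.23, -0.12 and -0.22.

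The comparison of the libraries labelled HC with their controls asks the same question for the active kinase, with the limit that Map4k1 was not higher in them. The 10 genes did not move one way: 4 had a higher and 6 a lower mean, and the median log2 fold change was -0.02, against 0.00 over all genes tested. EdgeR called 0 of the 10 and 0.565% of the 18407 genes tested, and DESeq2 called 0 of the 10, with 1.45% of all genes called higher and 1.09% lower. At an unadjusted p under 0.05, 1 of the 10 was higher (8.39% of all genes were) and 3 were lower (7.47% of all genes were). Those same 4 genes were the ones whose groups did not overlap, 1 higher (17.5% of all genes) and 3 lower (16.1% of all genes).

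Phlda1 was the gene that was higher. It stood at 50.2, 51.5 and 50.2 CPM in the libraries labelled HC and at 36.6 and 25.8 CPM in controls. The 3 libraries were nearly equal and above both controls, which themselves differed. The log2 fold change was 0.70 (SE 0.16, 95% interval 0.32 to 1.08, adjusted p = 0.119, edgeR), and with DESeq2 its adjusted p was 0.00824, a pass that was no call because the change was under the required size. Over the alternatives its adjusted p ran from 0.00824 to 0.779. Without HC 3, the library with Y-linked RNA, the log2 fold change of Phlda1 was 0.69.

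Spred1, Etv4 and Etv5 were the genes that were lower. Spred1 stood at 89.4, 73.5 and 75.1 CPM in the libraries labelled HC and at 109 and 101 CPM in controls (log2 fold change -0.40, SE 0.12, adjusted p = 0.193, edgeR). Etv5 stood at 52.9, 53.7 and 49.2 CPM against 63.4 and 64.6 CPM (log2 fold change -0.30, SE 0.09, adjusted p = 0.198, edgeR). Etv4 stood at 27.6, 26.7 and 24.3 CPM against 31.6 and 33.7 CPM (log2 fold change -0.32, SE 0.11, adjusted p = 0.245, edgeR). In all 3 the groups were separate and the difference was small, with the means in the libraries labelled HC at 0.756, 0.812 and 0.802 of those in controls. Without HC 3 the log2 fold changes of Spred1, Etv4 and Etv5 were -0.38, -0.28 and -0.28, and Etv4 and Etv5 then had an unadjusted p of 0.0988 and 0.0644. The ratio of Etv5 to Etv4 was 1.92 to 2.03 in all 5 libraries of this table.

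The phosphatases were level between the groups or overlapped. Dusp4 stood at 41.1, 41.7 and 39.4 CPM in the libraries labelled HC and at 41.3 and 41.8 CPM in controls, and the 95% interval of its log2 fold change, ran from -0.24 to 0.19. Dusp6 stood at 81.7, 66.2 and 65.1 CPM against 74.7 and 69.3 CPM, with an interval from -0.33 to 0.29. Dusp5 stood at 29.6, 33.6 and 27.1 CPM against 28.0 and 19.3 CPM, and its log2 fold change of 0.35 had an interval from -0.10 to 0.80.

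Of the remaining Sprouty genes, each overlapped between the groups. Spry1 stood at 82.2, 54.2 and 45.3 CPM in the libraries labelled HC and at 53.4 and 64.0 CPM in controls. Spry2 stood at 36.2, 29.2 and 28.2 CPM against 31.3 and 26.6 CPM. Spry4 stood at 26.2, 13.6 and 17.7 CPM against 27.3 and 15.8 CPM. HC 1 was the highest of the libraries labelled HC in all 3 of these genes, and the intervals of the log2 fold changes ran from -0.56 to 0.65, from -0.26 to 0.47 and from -0.97 to 0.63.

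Beside these values, all 8 endothelial markers were lower in the libraries labelled HC (3 at an unadjusted p under 0.05), with sums of 236 to 317 CPM against 337 to 415 CPM in controls. All 8 macrophage markers were lower too (5 at an unadjusted p under 0.05), with sums of 1459 to 2289 CPM against 2428 to 4026 CPM, and 8 of 9 ductal markers were higher, with sums of 5920 to 7159 CPM against 5141 to 5618 CPM. The 5 B cell markers were lower, at 12.5 to 14.3 CPM against 22.5 and 40.7 CPM, as were the 5 neutrophil markers tested (4 at an unadjusted p under 0.05, all 5 with groups that did not overlap), whose list summed to 50.6 to 62.6 CPM against 88.6 and 111 CPM. All 6 islet markers were higher, at 3156 to 4665 CPM against 2647 and 2769 CPM. EdgeR called the ductal marker Tspan8 as higher and the B cell marker Cd79a as lower. The part of these cells in the result was not tested.

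Whether the effect in MC and the effect in the libraries labelled HC differed was tested in 1 fit of the 4 groups, over the 14882 genes tested that both tables list by symbol. All 10 differences had the same sign, with the log2 fold change higher in MC, and their median was 0.72, against -0.03 over all genes tested. EdgeR called 0 of the 10 and 2.18% of all genes, and DESeq2 called 0 of the 10 and 5.44% of all genes as higher. At an unadjusted p under 0.05, 3 of the 10 were higher (Spred1, Etv4 and Etv5), where 12.3% of all genes were. The experiments differed in the age of the mice and in the library kit named by the labels. Their controls differed too, B control for MC and wild-type for the libraries labelled HC. Acinar markers took 29.2 to 45.4% of counts in the MC experiment and 4.32 to 6.73% in the other. Genotype, age, kit, kind of control and make-up of the tissue cannot be told apart in this difference. Sex could not be compared, since Xist and Ddx3y were not listed for MC and its controls.

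Spred1, with opposite signs in the 2 experiments, had a difference of 1.03 on the log2 scale (SE 0.30, 95% interval 0.37 to 1.68, adjusted p = 0.0867, edgeR). DESeq2 gave it an adjusted p of 0.0286 with a difference just under the size of a call (0.997). The differences were 1.72 for Etv5 (95% interval 0.27 to 3.18, adjusted p = 0.169, edgeR) and 1.51 for Etv4 (95% interval 0.05 to 2.97, adjusted p = 0.225, edgeR). Without MC 1, edgeR called 2 of the 10, Spred1 (1.18, adjusted p = 0.0493) and Etv5 (2.15, adjusted p = 0.0115), where 2.35% of all genes were called higher. Without control 2 of MC it also called 2, Spred1 (1.27, adjusted p = 0.0124) and Etv4 (2.14, adjusted p = 0.0479), where 8.99% of all genes were called higher. The adjusted p of Spred1 reached 0.271 over the other alternatives. Of the other 7 genes, the differences ran from 0.19 (Spry1) to 0.96 (Dusp5), and each interval held 0.

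**Figure D3:**
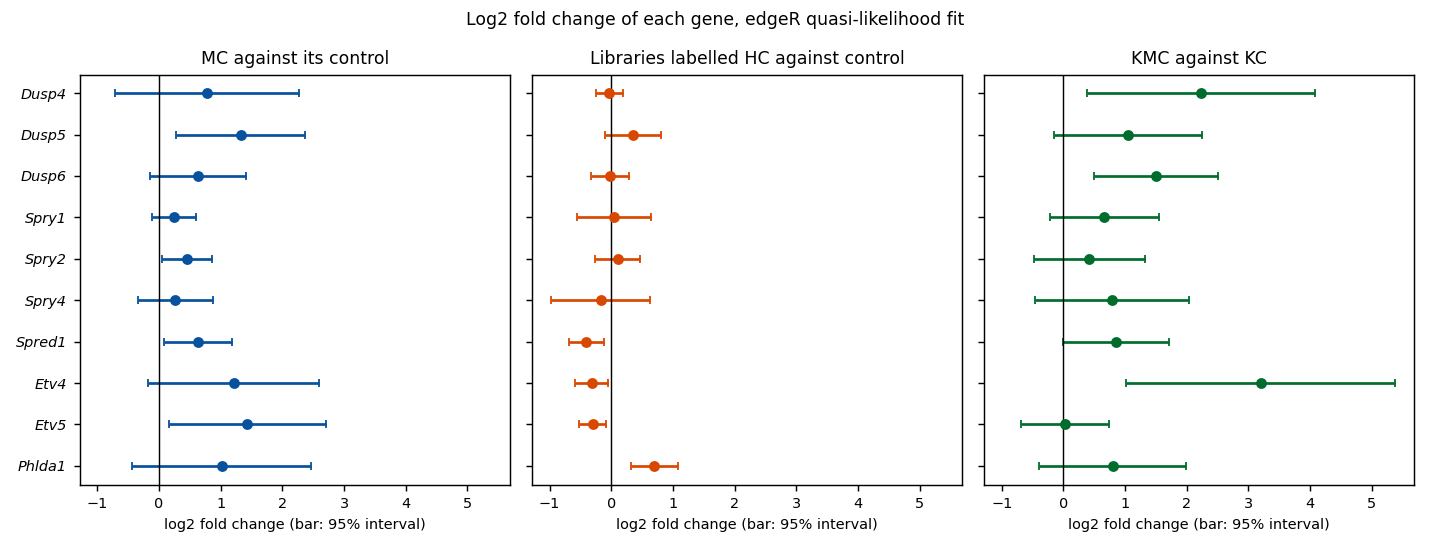
Log2 fold change of each gene in MC against its control (3 and 3 libraries), in the libraries labelled HC against control (3 and 2) and in KMC against KC (2 and 2), from edgeR's quasi-likelihood fit, with bars for 95% intervals and a line at 0. All points lie right of 0 in MC and in KMC with wide bars, and the points for the libraries labelled HC lie between -0.40 and 0.70.

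The comparison of KMC with KC asks whether M46 goes with a different output on the Ras/B background. All 10 genes had a higher mean in KMC, from 1.02-fold (Etv5) to 9.17-fold (Etv4), with a median log2 fold change of 0.83 against 0.03 over all genes tested. EdgeR called 0 of the 10 and 0.0191% of the 15733 genes tested. DESeq2 called 3 of the 10, Etv4, Dusp4 and Dusp6, where it called 9.25% of all genes as higher. At an unadjusted p under 0.05 edgeR had the same 3 genes, where 16.1% of all genes were higher. In 7 of the 10 genes both KMC libraries were above both KC libraries, as were 34.4% of all genes tested. With 2 libraries a group the spread is poorly known.

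Etv4 had the largest difference. It stood at 1.65 and 9.57 CPM in KMC 1 and 2 and at 0.272 and 0.890 CPM in KC 1 and 2, which are 67, 803, 4 and 23 counts. KMC 2 was far above KMC 1, and both were above both KC libraries. The log2 fold change was 3.20 (SE 0.93, 95% interval 1.02 to 5.37, adjusted p = 0.116, edgeR), and DESeq2 gave an adjusted p of 0.00254.

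Etv5 did not share this pattern, although both factors belong to the same subfamily of ETS proteins. It stood at 19.8 and 16.5 CPM in KMC and at 16.7 and 19.0 CPM in KC, so the groups lay on top of each other. The log2 fold change was 0.02 with an interval from -0.69 to 0.74. Etv5 exceeded Etv4 by 61.2 and 21.3 times in KC 1 and 2, by 12 times in KMC 1 and by 1.73 times in KMC 2.

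All 3 phosphatases had groups that did not overlap. Dusp4 stood at 2.87 and 11.7 CPM in KMC and at 0.681 and 2.32 CPM in KC, with KMC 1 close to KC 2 (log2 fold change 2.24, SE 0.79, adjusted p = 0.149 with edgeR and 0.0243 with DESeq2). Dusp6 stood at 11.7 and 25.3 CPM in KMC and at 6.54 and 6.58 CPM in KC (log2 fold change 1.5, SE 0.43, adjusted p = 0.113 with edgeR and 0.0294 with DESeq2). Dusp5 stood at 5.26 and 11.1 CPM in KMC and at 2.66 and 5.23 CPM in KC. KMC 1 and KC 2 were nearly equal in Dusp5, and its log2 fold change of 1.04 had an interval from -0.15 to 2.24.

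The Sprouty and Spred genes had smaller differences than Etv4, Dusp4 and Dusp6, and none had an unadjusted p under 0.05. Spred1 stood at 25.9 and 42.4 CPM in KMC and at 16.7 and 21.1 CPM in KC (log2 fold change 0.85, SE 0.37, adjusted p = 0.197, edgeR). Spry1 stood at 8.03 and 12.6 CPM against 5.58 and 7.39 CPM, and Spry2 at 5.85 and 6.98 CPM against 3.81 and 5.73 CPM. Spry4 stood at 3.91 and 7.39 CPM against 1.97 and 4.53 CPM. Of these 4, Spry4 was the one whose groups overlapped. The intervals of the log2 fold changes of Spry1, Spry2 and Spry4, from -0.22 to 1.55, from -0.48 to 1.32 and from -0.46 to 2.03, all held 0. Phlda1 stood at 3.91 and 7.70 CPM in KMC and at 4.43 and 2.32 CPM in KC, with KMC 1 below KC 1 and an interval from -0.39 to 1.99.

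KMC 2 was above both KC libraries in 9 of the 10 genes and below both in Etv5, and KMC 1 was above both in 8, while KC 1 was the lowest of the 4 libraries in 8. Such counts over all genes tested were not made for single libraries. Both KMC libraries together were above both KC libraries in 34.4% of all genes, so each alone was in at least that share. Without KMC 1, edgeR called 3 of the 10 genes (Etv4, Dusp4 and Dusp6), where 9.61% of all genes were called higher, with KMC 2 assumed to vary like the KC libraries. Without KMC 2 it called 0, the median log2 fold change was 0.37, and the log2 fold changes of Etv4, Dusp4 and Dusp6 were 1.45, 0.91 and 0.85. Without KC 1 those of Etv4 and Dusp4 were 2.64 and 1.64, and without KC 2 they were 4.35 and 3.41. Over the alternatives the adjusted p ran from 3.44e-05 to 0.70 for Etv4, from 0.000372 to 0.777 for Dusp4 and from 0.000878 to 0.639 for Dusp6. In 1 fit with the libraries of the HC table, 3 of the 10 were called, where 12.1% of all genes were called higher.

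Several marker lists also differed in this comparison. By total counts, the 8 fibroblast markers summed to 2648 and 13515 CPM in KMC 1 and 2 against 210 and 680 CPM in KC 1 and 2. The 8 macrophage markers, all with an unadjusted p under 0.05, summed to 1105 and 6094 CPM against 160 and 215 CPM. The 9 ductal markers summed to 776 and 1940 CPM against 260 and 351 CPM, the 8 endothelial markers to 130 and 332 CPM against 47.5 and 76.0 CPM, the 7 T cell markers to 14.6 and 28.3 CPM against 1.13 and 2.42 CPM, the 6 neutrophil markers to 22.4 and 81.7 CPM against 0.794 and 3.86 CPM, and the 16 acinar markers to 36.5 and 18.9% of counts against 51.9 and 46.3%. In each of these lists KMC 2 was farther from KC than KMC 1 was, and KC 1 lay at the other end. The 5 B cell markers had that order too, at 22.0 and 23.3 CPM against 0.430 and 7.05 CPM. The 6 islet markers did not, at 1836 and 1650 CPM against 1488 and 1205 CPM. Most of the 10 genes were ordered as in the lists other than the islet markers, but they were scaled by TMM, so the orders are not on the same scale. With TMM the median log2 fold change was 2.42 for fibroblast, 2.63 for macrophage, 0.84 for ductal and 0.37 for endothelial markers. It was 2.09 for T cell, 1.58 for B cell, 3.06 for neutrophil, -0.66 for islet and -1.97 for acinar markers. Of the 8 endothelial markers 2 were higher without overlap of the groups, where 34.4% of all genes tested were. Of the 9 ductal markers 8 were higher, 4 of them without overlap. The 1 that was lower did not overlap either, where 30.9% of all genes tested were lower in that way. At 0 counts were Pax5 of the B cell list and Cd8a of the T cell list, both in KC 1, and Ly6g of the neutrophil list in both KC libraries. Ly6g, which was not tested in any comparison, was also at 0 in HC 1, HC 3 and both controls of HC. The part of these cells in the result was not tested.

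**Figure D4:**
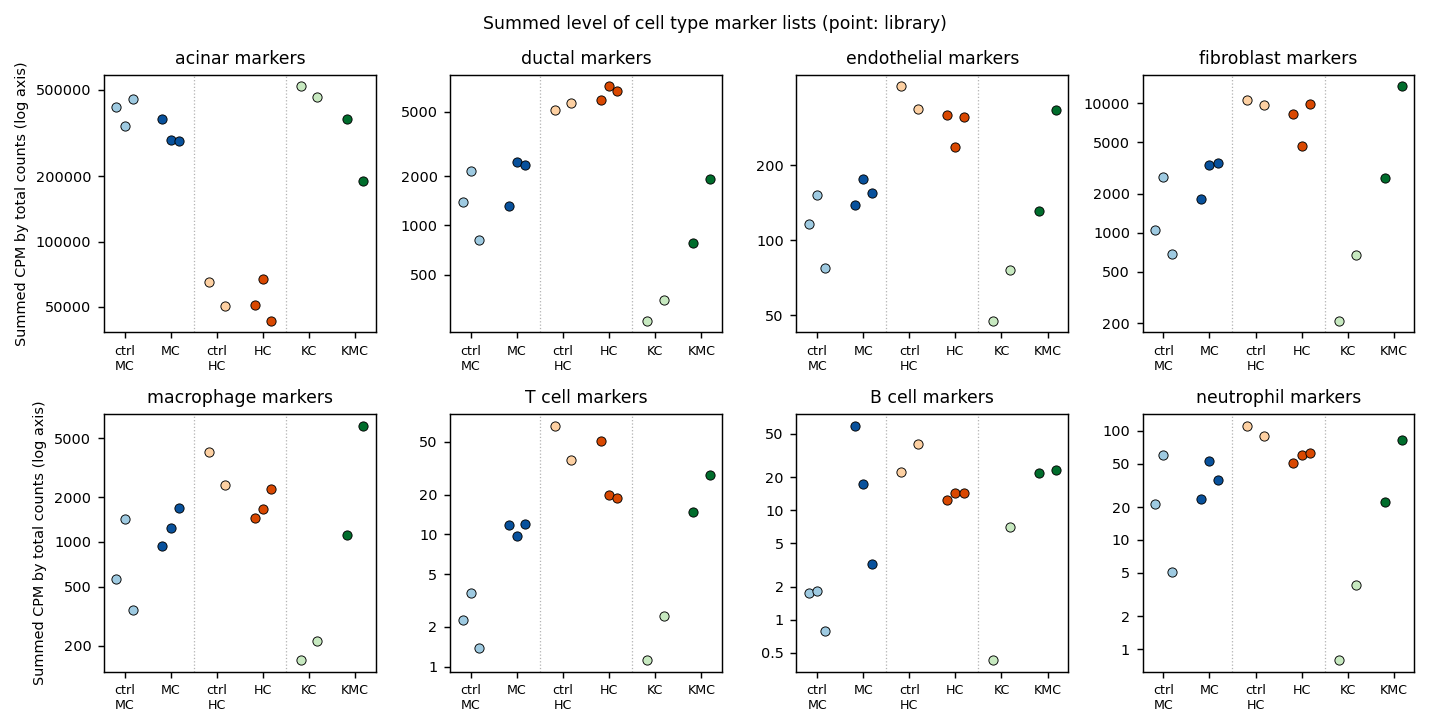
Summed level of 8 cell type marker lists in each library, in CPM by total counts on a log axis, for the 6 groups (ctrl stands for control), with dotted lines between the tables. Acinar sums are lower and fibroblast, macrophage and ductal sums higher in both KMC libraries than in both KC libraries, and MC 1 has the highest B cell sum at 59.4 CPM.

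The size of the KMC differences depended on the scaling. With TMM the median of all genes tested was 0.03 on the log2 scale, with library size alone it was 1.47, and with library size counted without acinar markers it was 0.95. The median of the 10 genes lay 0.80 above that of all genes with TMM, 0.94 with library size alone and 0.88 without acinar markers. Library size alone called 8 of the 10, where 29.8% of all genes were called higher, and library size without acinar markers called 7, where 22% were. All 10 genes were above KC under these scalings. With DESeq2 and with its size factors Etv5 was lower by 0.01. In MC the shift of all genes with library size alone was 0.29, and the 10 genes lay 0.72 above it.

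The other genes of the pathway were described in the same fits. Of 11 relatives, other DUSP, Sprouty, Spred and ETV genes, 10 were tested in each comparison (Spry3 was not), and edgeR called 0 in each. Higher levels were found for 6 of these 10 in MC, for 4 in the libraries labelled HC and for 8 in KMC. Dusp8, a phosphatase that acts mainly on the stress kinases JNK and p38, was lower in KMC and in MC. It stood at 4.57 and 3.17 CPM in KMC and at 11.4 and 18.7 CPM in KC (log2 fold change -1.97, adjusted p = 0.0796 with edgeR and 0.000901 with DESeq2), and at 2.70, 9.07 and 6.57 CPM in MC and 11.5, 11.3 and 8.31 CPM in controls, where MC 2 overlapped the controls.

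Spred3, a relative of Spred1, stood at 1.72 and 4.78 CPM in KMC and at 0.545 and 0.542 CPM in KC (log2 fold change 2.58, adjusted p = 0.101 with edgeR and 0.00862 with DESeq2). Dusp10, another phosphatase of the stress kinases, had a log2 fold change of 1.65 in KMC (adjusted p = 0.139, edgeR). In MC, Etv1, the third member of the subfamily of Etv4 and Etv5, had a log2 fold change of 0.77 and Spred3 one of 0.75 (adjusted p = 0.408 and 0.437, edgeR), with groups that overlapped. In the libraries labelled HC, Dusp16 had a log2 fold change of -0.31, Spred2 of 0.29 and Dusp2 of -0.69 (adjusted p = 0.257, 0.264 and 0.315, edgeR).

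A list of 10 other genes that ERK induces included Myc, Ccnd1, Plaur, Epha2, Epha4 and Hmga2. EdgeR called 0 of them in each comparison. In MC 7 of the 9 tested were higher, with a median log2 fold change of 0.66 against -0.02 over all genes. Myc, a growth regulator whose RNA ERK helps to induce, was lower: it stood at 29.2, 27.1 and 24.2 CPM in MC and at 41.7, 36.6 and 56.3 CPM in controls, so that all MC libraries were below all controls (log2 fold change -0.74, SE 0.17, adjusted p = 0.139 with edgeR and 0.0157 with DESeq2). Ccnd1, which encodes cyclin D1, stood at 37.2, 62.5 and 55.0 CPM in MC and at 23.1, 44.0 and 21.5 CPM in controls (log2 fold change 0.80, adjusted p = 0.303, edgeR). Epha4, an ephrin receptor, had a log2 fold change of 0.56 (adjusted p = 0.361, edgeR).

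In KMC 9 of these 10 genes were higher, and DESeq2 called 4 of them, where it called 9.25% of all genes as higher. Plaur, the urokinase receptor, stood at 2.46 and 20.3 CPM in KMC and at 1.09 and 1.70 CPM in KC (log2 fold change 3.0, adjusted p = 0.122 with edgeR and 0.00234 with DESeq2). Epha2, another ephrin receptor, stood at 3.93 and 20.5 CPM in KMC and at 0.749 and 2.55 CPM in KC (log2 fold change 2.84, adjusted p = 0.121 with edgeR and 0.0028 with DESeq2). KMC 2 was by far the highest library in both genes, as in Etv4. Ccnd1 stood at 39.1 and 34.3 CPM in KMC and at 7.42 and 19.2 CPM in KC (log2 fold change 1.45, adjusted p = 0.132 with edgeR and 0.0368 with DESeq2). Ccnd1 was thus higher in KMC 1 than in KMC 2, the reverse of Plaur and Epha2.

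In the libraries labelled HC 5 of the 10 were higher and 5 lower. Hmga2, a chromatin protein, stood at 0.945, 1.75 and 2.89 CPM there and at 9.64 and 5.48 CPM in controls (log2 fold change -2.02, SE 0.48, adjusted p = 0.130 with edgeR and 0.0019 with DESeq2). In the MC table it had 1 to 3 counts per library and was not tested. Plaur stood at 59.8, 58.3 and 61.7 CPM against 47.0 and 41.4 CPM (log2 fold change 0.44, adjusted p = 0.119, edgeR), and Epha2 had a log2 fold change of 0.19 (adjusted p = 0.401, edgeR).

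The components of the cascade itself, from adaptors to ERK, were also measured. EdgeR called 0 of the 7 adaptors and exchange factors and 0 of the 15 genes of Ras, RasGAP, Raf, MEK and ERK in each comparison. In MC 5 of those 15 were higher and 10 lower, with log2 fold changes from -0.23 to 0.46 and a median of -0.09. Map2k1, which encodes MEK1, was the one of them with an unadjusted p under 0.05, at 24.3, 29.6 and 32 CPM in MC and 20.7, 22.9 and 22.7 CPM in controls (log2 fold change 0.37, adjusted p = 0.282, edgeR). Rps6ka3, a kinase that ERK activates, and Ksr1, a scaffold of the cascade, had log2 fold changes of 0.23 and 0.46 (adjusted p = 0.411 and 0.420, edgeR). Grb2, Frs2 and Gab1, adaptors between receptors and Ras, had log2 fold changes of 0.22, -0.17 and -0.19 (adjusted p = 0.455, 0.466 and 0.539, edgeR).

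In the libraries labelled HC, Mapk3, which encodes ERK1, stood at 334, 381 and 336 CPM against 250 and 220 CPM in controls (log2 fold change 0.58, SE 0.13, adjusted p = 0.118 with edgeR and 0.0011 with DESeq2). Map2k2, which encodes MEK2, stood at 118, 132 and 125 CPM against 106 and 96.1 CPM, and Rps6ka1, another kinase that ERK activates, at 138, 140 and 133 CPM against 119 and 106 CPM. For these 2 the log2 fold changes were 0.31 and 0.29 (adjusted p = 0.232 and 0.251, edgeR). Over the 15 genes 8 were higher and 7 lower, and the groups did not overlap for 6 that were higher and 5 that were lower, where 17.5% and 16.1% of all genes tested did so. Grb2, Sos1 and Ptpn11, an adaptor, an exchange factor and a phosphatase upstream of Ras, had log2 fold changes of -0.14, -0.12 and -0.10 (adjusted p = 0.527, 0.645 and 0.728, edgeR).

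In KMC 11 of the 15 genes were higher and 4 lower. The scaffold Ksr1 stood at 7.74 and 13.3 CPM against 2.38 and 4.06 CPM in KC (log2 fold change 1.70, SE 0.45, adjusted p = 0.103 with edgeR and 0.0162 with DESeq2). Hras stood at 11.6 and 12.6 CPM against 49.6 and 16.6 CPM, with KC 1 the highest by far (log2 fold change -1.45, adjusted p = 0.149 with edgeR and 0.0403 with DESeq2). Map2k2 stood at 45.1 and 41.9 CPM against 107 and 61.5 CPM (log2 fold change -0.96, adjusted p = 0.196, edgeR). Grb2, Gab1 and Sos2, an exchange factor of Ras, had log2 fold changes of 0.49, 0.40 and -0.34 (adjusted p = 0.415, 0.470 and 0.489, edgeR).

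In the difference between the effect in MC and that in the libraries labelled HC, edgeR called 0 genes of these 4 lists. Of the other genes that ERK induces 8 of 10 had a positive difference, and of the genes from Ras to ERK 6 of 15 did. The smallest adjusted p of the lists was that of Mapk3, 0.0526, with a difference of -0.79 on the log2 scale, and DESeq2 gave 0.000491. Rps6ka1 and Hras had differences of -0.41 and -0.40 (adjusted p = 0.129 and 0.193, edgeR), Myc, Ccnd1 and Ier3 of -0.72, 0.94 and 0.91 (adjusted p = 0.156, 0.195 and 0.297, edgeR), Dusp7, Etv1 and Dusp2 of 0.45, 0.99 and 1.12 (adjusted p = 0.172, 0.274 and 0.310, edgeR), and Grb2, Gab1 and Frs2 of 0.35, -0.23 and -0.17 (adjusted p = 0.277, 0.549 and 0.551, edgeR).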

How the data were processed

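Pancreatic RNA of 15 libraries was analysed. The authors aligned reads with STAR to GRCm38, counted them on GENCODE genes and deposited the raw counts in 3 tables, not normalized; the submitters' processing notes also name bcl2fastq 2.17.14, STAR 2.6.1a, HTSeq 0.6.1 and DESeq2. A further deposited table of the authors' own DESeq2 fold changes and p-values was not used. By what rule the MC table was limited to 15175 genes is not given in the sources used here. Samples were grouped by the labels, and nothing says which libraries share a day or litter. Each library pools 3 mice.

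Low counts were removed by filterByExpr and libraries scaled by TMM. Each table was then tested in R 4.3.3 by the quasi-likelihood functions of edgeR 4.0.16, with Benjamini-Hochberg adjustment over all genes tested. A call needed an adjusted p no higher than 0.05 together with a difference of 1 or more on the log2 scale. The standard error was taken as that difference over the root of the F statistic. The difference between the effects of MC and HC was fitted over 4 groups, with tables joined by symbol (15173 genes). DESeq2 1.42.0, other scalings and filters, a block for the replicate number, the HC and KMC tables in 1 fit, and leaving out each library were alternatives. Scripts were tested on simulated counts. Symbols matched 49326 of 49585 identifiers in the HC and KMC tables and 15164 of 15175 in the MC table. CPM of marker sums, Map4k1, Xist and Ddx3y are by total counts, and all other CPM are scaled by TMM. The named genes were the 10 genes and, from each further list, the 3 with the smallest unadjusted p in each comparison. The genes, lists and rules were chosen with earlier results of these data known. P-values measure the spread between pooled libraries.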

Additional observations from a re-analysis of the deposited data

How the results depend on the processing

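Over the 550 values of the 10 genes under alternatives, 502 kept their direction and side of the threshold, 32 passed it in the same direction and 16 changed sign. The largest value that changed sign was that of Spry4 in the difference between the effects, 0.42 on the log2 scale in the main fit. In the libraries labelled HC, Dusp6 was at 0.032 on the log2 scale with the replicate block and was also positive without HC 2, HC 3 or control 1. With 1 library left out, Dusp6 ran from -0.13 to 0.035, Spry1 from -0.24 (without HC 1) to 0.20, Spry2 from -0.012 (without HC 1) to 0.23 and Spry4 from -0.51 to 0.28 (without control 1). Spry1 was also below 0 without control 1 and Spry2 without control 2, and Spry4 was also above 0 without HC 2. In KMC, Etv5 was at -0.0078 with DESeq2 and -0.0077 with its size factors, and ran from -0.12 (without KMC 1) to 0.17 with 1 library left out, below 0 without KC 1 too. In the difference between the effects of MC and HC, Phlda1 ran from -0.075 (without MC 3) to 0.81 and Spry4 from -0.020 (without control 1 of HC) to 0.76 with 1 library left out.

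Counts of genes called moved with several settings. Against 0 genes in MC (2038 at an unadjusted p under 0.05), DESeq2 called 453 and library size alone 1. Against 104 in HC, DESeq2 called 468, library size without acinar markers 53, no filter 395 and the tables in 1 fit 1. Against 3 in KMC, DESeq2 called 2159, library size alone 4714, library size without acinar markers 3485, no filter 9 and the tables in 1 fit 3230. Against 325 in the difference, DESeq2 called 1005, library size alone 98 and library size without acinar markers 110. Of the 10 genes in KMC, DESeq2 called 3, library size alone 8, library size without acinar markers 7 and the tables in 1 fit 3. Leaving out 1 library gave 0 to 718 genes and 0 to 1 of the 10 in MC, 0 to 379 genes in HC, 0 to 2312 genes and 0 to 3 of the 10 in KMC, and 0 to 1583 genes and 0 to 2 of the 10 in the difference. The highest gene counts came without control 2 of MC (718, and 1583 in the difference), HC 1 (379) and KMC 1 (2312), and no gene was called without HC 2, either control of HC or either KC library in their own comparisons. Where this left 1 library in a group, that library was assumed to vary like the others.

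The replicate numbers were not shown to pair libraries: deviations of libraries with the same number correlated at 0.0665, 0.296 and -0.297 in MC, 0.189 and 0.170 in HC, and 0.0514 in both pairs of KMC. With the replicate block, 0 genes were called in MC, 339 in HC and 2464 in KMC, and of the 10 genes 0, 0 and 3. The cause of these changes was not tested. Depth limits Etv4 in KC most, at 4 and 23 counts.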
